A study of Homo sapiens with 6 samples.

Results

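Collagens are the main structural proteins of the extracellular matrix, and their expression was described here for BT-549/tet-WDR5shRNA cells, a human triple-negative breast cancer (TNBC) line in which tetracycline or doxycycline switches on an shRNA against WDR5. The genes were chosen by symbol alone (COL, a number, A and a number), which found 39 of the 19792 genes in the authors' RNA-seq table. Of 6 cultures that were sequenced, 3 received vehicle (0.1% DMSO) and 3 received doxycycline (DOX) at 500 ng/ml to induce the shRNA, and by the paper's text the treatment lasted 7 days. All 6 libraries came from the same puromycin-selected, shRNA-carrying line, so that DOX itself and silencing of WDR5 cannot be told apart, and no control shRNA was among them. The only measurement used here is the authors' mean normalized count of each gene, which is pooled over the 6 libraries. Levels of the collagen genes are thus given for the vehicle and DOX cultures together, with no SD and no test between them, and WDR5 itself, with a mean normalized count of 1143 over both groups, could not be examined per sample.

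Every collagen chain holds a repeat of glycine followed by a pair of other residues (Gly-X-Y), which lets chains wind into a triple helix. Some collagens form the striated fibrils that bear tension in tissues, others form the sheets of basement membranes, and further groups decorate fibrils, anchor epithelia or span the cell membrane. Chains are hydroxylated and glycosylated in the endoplasmic reticulum, secreted, trimmed and cross-linked, and cells bind them through integrins and discoidin domain receptors. In carcinomas most fibrillar collagen is made by stromal fibroblasts, although cancer cells with mesenchymal features can also express it.

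The depth behind the values could be read from the lowest means. Exactly 6 values were found below the mean that 2 reads can give, and each was shared by 165 to 257 genes. They are the means of genes with 1 read in a single library. A read was therefore worth a normalized count of 0.7440 to 1.357 depending on the library, which corresponds to size factors from 0.7367 to 1.344. Which library is which culture was not known, and the 6 are named libraries A to F in the order of their size factors, from the highest to the lowest.

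The markers of the line were checked first. The mesenchymal genes VIM and CDH2 had mean normalized counts of 47782 and 4093, whereas the epithelial genes EPCAM and CDH1 had 1.304 and 59.59. Of 7 epithelial markers, 4 had a mean of at least 10, and KRT18 was the highest at 434.9. ESR1 and PGR, the hormone receptor genes whose absence helps define TNBC, had means of 0.7900 and 0.8014, and ERBB2 was at 1221. The 3 endothelial markers lay between 0.1723 and 2.864. Among 6 markers of stromal fibroblasts, THY1 was high at 8658, FAP was at 494.4, PDGFRA at 235.0, DCN at 102.5, LUM at 60.11 and PDGFRB at 4.670, so that 5 of the 6 had a mean of at least 10. Among the immune markers, PTPRC and CD14 had means of 44.67 and 24.02, and CD3E had no row. All cultures were of this single cell line, and the paper describes no co-culture with other cell types. In RNA from whole cultures, a marker carried by few cells and one carried weakly by all cannot be told apart, and this was not tested.

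A small number of collagen genes accounted for nearly all collagen RNA. Of the 39 genes, 29 (74.4%) had a mean normalized count of at least 10, beside 68.5% of all 19792 genes. The 8 highest genes, COL15A1, COL1A2, COL5A2, COL3A1, COL4A2, COL4A1, COL12A1 and COL5A1, all had means above 10000, and together they held 86.8% of the summed collagen means. Of all genes in the table, 2.16% reached 10000, whereas 20.5% of the collagen genes did. The 13 highest, each above 1000, held 98.53%. In contrast, the median of the 39 genes was 180.9, close to the median of 187.2 over all genes. The collagen genes made up 0.599% of the summed means of the table.

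Below these 13 genes, 7 lay from 180.9 to 493.2 and 9 lay between 10 and 50, with none between 44.64 (COL27A1) and 180.9 (COL8A1). The 10 genes under 10 were COL4A4, COL4A3, COL10A1, COL8A2, COL19A1, COL2A1, COL26A1, COL25A1, COL20A1 and COL6A6. COL5A3, COL11A1, COL6A5, COL9A1 and COL22A1, which belong to the same gene family by name, had no row and so could not be analysed here.

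**Figure D1:**
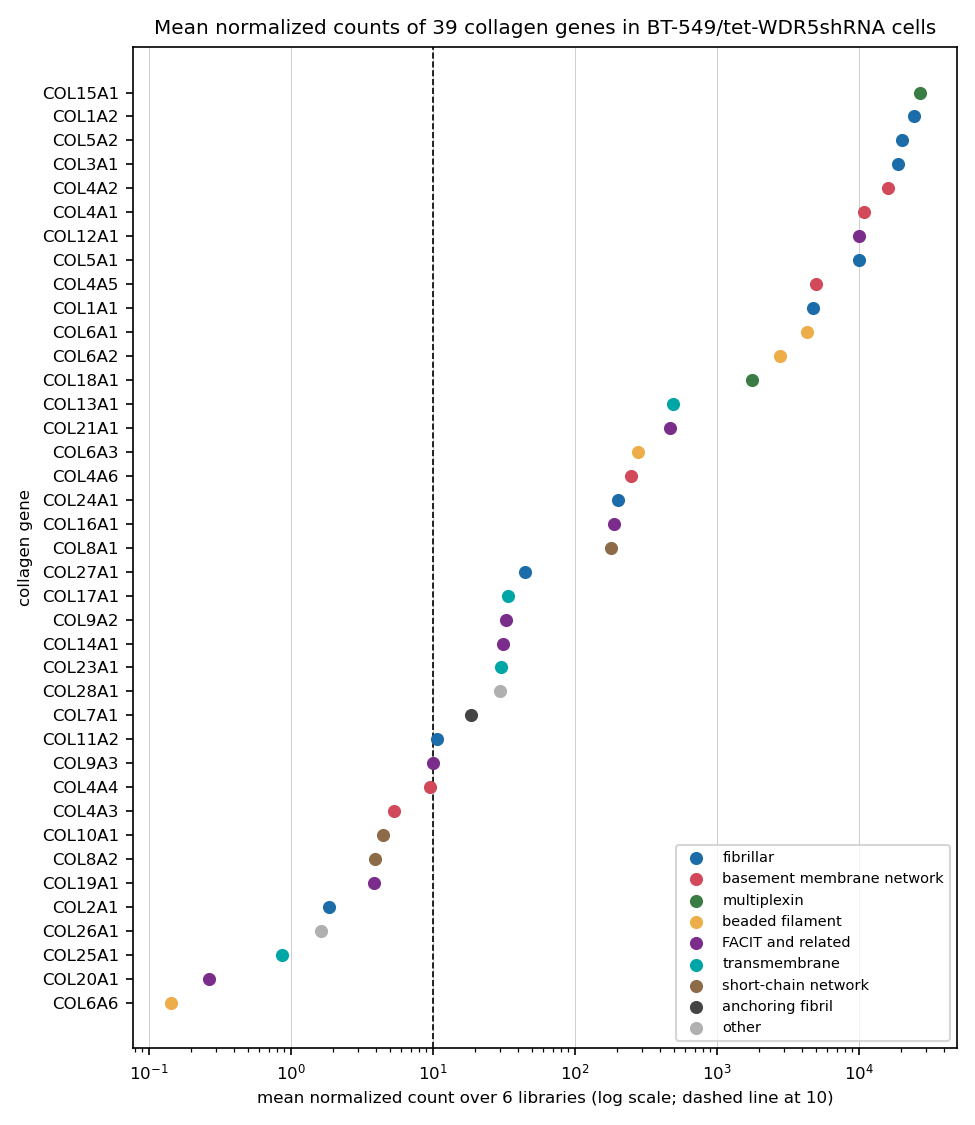
Mean normalized count of each of the 39 collagen genes over the 6 libraries (x axis, log scale), 1 point per gene, coloured by structural class, with a dashed line at 10. COL15A1 is the highest at 26902, 8 genes lie above 10000 and 10 genes lie left of the dashed line.

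Fibrillar collagens, which assemble into the striated fibrils of connective tissue, were the leading class. Of 9 genes with a row, 8 had a mean of at least 10. COL1A2, on chromosome 7 of GRCh38 from 94394895 to 94431227 (GENCODE 44), had a mean normalized count of 24590. Its partner in type I collagen, COL1A1 on chromosome 17 from 50184101 to 50201632, had 4755. In type I collagen the α1 chain is the majority chain, whereas in these cells the RNA of the α2 chain was 4.31 times that of α1 per kilobase of annotated exons. The ratio was 5.10 by the longest transcript and 5.54 by the coding sequence. COL3A1, which encodes the homotrimeric type III collagen, had a mean of 19022, or 5.33 times COL1A1 per kilobase. By the longest transcript it was 4.31 times COL1A1, and by the coding sequence 3.99 times. The type V genes COL5A2 and COL5A1, whose products limit the diameter of type I fibrils, had means of 20291 and 10025. COL3A1 and COL5A2 are neighbours on chromosome 2, where their annotated ends lie 19151 bases apart on opposite strands, and both were among the 4 highest collagen genes.

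The other fibrillar genes were far lower. COL24A1 and COL27A1, minor fibrillar genes, had means of 203.3 and 44.64. The cartilage genes COL11A2 and COL2A1 had means of 10.68 and 1.861. The fibrillar genes encoded the longest unbroken repeats of the family, with 216 to 343 Gly-X-Y triplets in a row. The stretches in which these runs end are given here for 3 of the 4 highest fibrillar genes, each as 90 coding bases (GENCODE 44 on GRCh38), with the glycine codons of the run in capitals. In each, the rhythm of a GGN codon followed by a pair of other codons stops and the coding sequence of the C-terminal part begins.
COL1A2: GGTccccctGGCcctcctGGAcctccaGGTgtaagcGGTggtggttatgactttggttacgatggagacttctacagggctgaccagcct
COL3A1: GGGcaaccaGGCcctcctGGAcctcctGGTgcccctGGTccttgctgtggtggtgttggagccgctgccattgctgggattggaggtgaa
COL5A2: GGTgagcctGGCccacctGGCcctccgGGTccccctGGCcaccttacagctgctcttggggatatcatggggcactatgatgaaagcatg
The last codons of these runs are number 1107 of 1366 in COL1A2, 1196 of 1466 in COL3A1 and 1229 of 1499 in COL5A2.

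COL15A1 was the highest collagen gene by every measure used. It encodes a collagen of the basement membrane zone that carries glycosaminoglycan chains and has a helix broken into many parts, a structure known as multiplexin. The gene lies on chromosome 9 from 98943179 to 99070792, and its mean normalized count was 26902. Per kilobase it was at 4044, which placed it at rank 157 of the 18307 genes with a gene model, and it held 22.9% of the summed collagen level per length. COL18A1, the other multiplexin gene and the source of endostatin, had a mean of 1766 and 208.6 per kilobase.

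Type IV collagen, the network of basement membranes, is encoded by 6 genes in 3 pairs, and the members of each pair lie head to head on opposite strands. The pairs stood at very different levels. COL4A2 and COL4A1 on chromosome 13, which encode the chains of nearly all basement membranes, had mean normalized counts of 16078 and 11013. COL4A5 and COL4A6 on chromosome X had 5029 and 249.8. COL4A4 and COL4A3 on chromosome 2, known for the basement membrane of the kidney glomerulus, had 9.551 and 5.383.

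Within the pairs, the levels of COL4A5 and COL4A6 were the furthest apart. The ratio per kilobase was 1.11 for COL4A2 over COL4A1, with 1.48 by the longest transcript. It was 1.84 for COL4A4 over COL4A3, on 59 and 31 reads in all, and 15.7 for COL4A5 over COL4A6. The annotated starts of RefSeq (GRCh38.p14) lie 126 bases apart for COL4A1 and COL4A2 and 418 bases apart for COL4A4 and COL4A3. For COL4A5 and COL4A6 they lie 379 bases apart, or 1415 bases from a second start of COL4A6. The stretch between the starts of COL4A1 and COL4A2 (chr13:110307158-110307283) is shown on the strand of COL4A2, with the 126 bases upstream of COL4A3 (chr2:227164498-227164623) and of COL4A5 (chrX:108439712-108439837) for comparison, and CCAAT or its reverse complement in capitals where present.
COL4A2: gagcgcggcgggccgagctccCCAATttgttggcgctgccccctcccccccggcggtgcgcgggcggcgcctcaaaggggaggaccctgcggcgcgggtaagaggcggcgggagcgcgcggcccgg
COL4A3: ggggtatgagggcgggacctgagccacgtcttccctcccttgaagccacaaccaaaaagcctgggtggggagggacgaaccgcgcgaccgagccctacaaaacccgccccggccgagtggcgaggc
COL4A5: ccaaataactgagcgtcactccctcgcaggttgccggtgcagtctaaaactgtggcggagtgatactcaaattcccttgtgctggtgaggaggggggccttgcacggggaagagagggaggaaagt
The share of G and C is 80.2% in the first stretch, 67.5% in the second and 56.3% in the third. CCAAT, on either strand, was found in 34.6% of all 35116 RefSeq windows from 250 bases before to 50 bases after a start, and in 11 of the 40 windows of the 29 collagen genes of the table that matched that set. These 11 windows belong to 9 genes. COL4A1, COL4A2, COL4A5 and COL4A6 were among the 9, and the windows of each of these pairs overlap, so that its members may share a match.

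In GENCODE 44 the outermost bounds of COL4A1 and COL4A2 overlap by 1346 bases on opposite strands. The libraries were stranded, but whether the counting used the strand is not given in the sources used here. The type IV helix is interrupted throughout, with 16 to 23 runs of at least 5 triplets in the 6 genes. The longest run of COL4A2 has 66 triplets, and the 90 coding bases around its end show the break, with the glycine codons of the run in capitals.
COL4A2: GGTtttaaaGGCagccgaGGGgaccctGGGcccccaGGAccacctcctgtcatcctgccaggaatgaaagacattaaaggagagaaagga

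Type VI collagen forms beaded filaments close to the cell surface from chains that assemble together. Its genes were unequal here. COL6A1 and COL6A2, which lie 93061 bases apart on chromosome 21, had mean normalized counts of 4315 and 2804. COL6A3, the gene of the longest chain, had 281.4. Per kilobase of annotated exons COL6A1 was 1.48 times COL6A2 and 59.6 times COL6A3. The second ratio was 38.4 by the longest transcript and 47.4 by the coding sequence. COL6A6 had 1 read in total, in 1 of the 6 libraries.

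Of the fibril-associated collagens (FACIT and related), which bind to the surface of fibrils, COL12A1 was high and the others were not. COL12A1, on chromosome 6 from 75084326 to 75206267, had a mean normalized count of 10103 and 535.7 per kilobase. The next of the class was COL21A1 at 467.5, followed by COL16A1 at 189.3. COL9A2 and COL14A1 had means of 32.77 and 31.53. The cartilage gene COL9A3 lay just above the minimum at 10.07, and COL19A1 and COL20A1 had 3.868 and 0.2678.

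The transmembrane collagens stay anchored in the cell membrane. COL13A1, found at cell adhesions, was the highest of them at 493.2. COL17A1, a component of the hemidesmosomes of epithelia, had a mean of 34.00, COL23A1 had 30.57 and COL25A1 had 0.8766. COL7A1, whose product forms the anchoring fibrils beneath epithelia, had 18.53. Of the short-chain network genes, COL8A1 had a mean of 180.9, whereas its partner COL8A2 had 3.931 and COL10A1, a gene of hypertrophic cartilage, had 4.470. COL28A1 and COL26A1 had means of 30.10 and 1.641.

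For genes with a mean under 50, the reads of each library were recovered where only a single set of whole reads gives the mean to the printed digits. Of the 4684 genes of the table with a mean under 3, 4684 gave exactly 1 set. Among the 19 collagen genes with a mean under 50, 18 gave exactly 1 set and COL27A1 gave 2 and was left out. These values are tied to no treatment label, so they are given as ranges with no test.

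The genes with means nearest to the minimum of 10 were COL4A4 below it and COL9A3 and COL11A2 above it. COL4A4 had 59 reads in all and normalized counts between 5.047 and 16.29 in the 6 libraries, with a median of 8.187. COL4A3, the next gene below, had fewer, with 31 reads and a range from 2.582 to 11.36 around a median of 4.268. COL9A3, just above the minimum, had 60 reads (95% Poisson interval 45.8 to 77.2) and values from 6.025 to 14.67, with a median of 9.829. COL11A2 had 67 reads (51.9 to 85.1) and values from 7.571 to 16.39, with a median of 10.60. The ranges of all 4 genes overlap, and the minimum of 10 falls inside each. The intervals cover counting error only.

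COL14A1 had a narrow range for its level, with 192 reads and normalized counts between 28.27 and 36.18. COL7A1 lay between 14.93 and 20.83 on 116 reads. COL23A1 and COL28A1 had 183 reads each, with wider ranges of 17.57 to 45.42 and 22.32 to 41.41. COL9A2 ranged from 25.84 to 46.15 and COL17A1 from 23.08 to 41.64. The order of the libraries differed between genes. In COL23A1, library D was the lowest and library E the highest. In COL9A2, library D was the lowest and library F the highest, whereas in COL14A1 library D was the highest.

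Reads of the lowest genes were few. COL10A1 had 26 reads in 5 libraries, COL19A1 had 25 and COL8A2 had 23 in all 6 libraries. COL2A1, the main collagen of cartilage, had 12 reads in 5 libraries, COL26A1 had 10 in 5 and COL25A1 had 5 in 5. COL20A1 had 2 reads in 2 libraries and COL6A6 had 1, for which the 95% Poisson interval is 0.0253 to 5.57 reads. For the genes above 50, the number of reads can only be bounded. COL8A1, the lowest of them, rested on 800 to 1459 reads, which puts its counting error at 3.54% or less. COL15A1 rested on 118908 to 216942 reads.

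**Figure D2:**
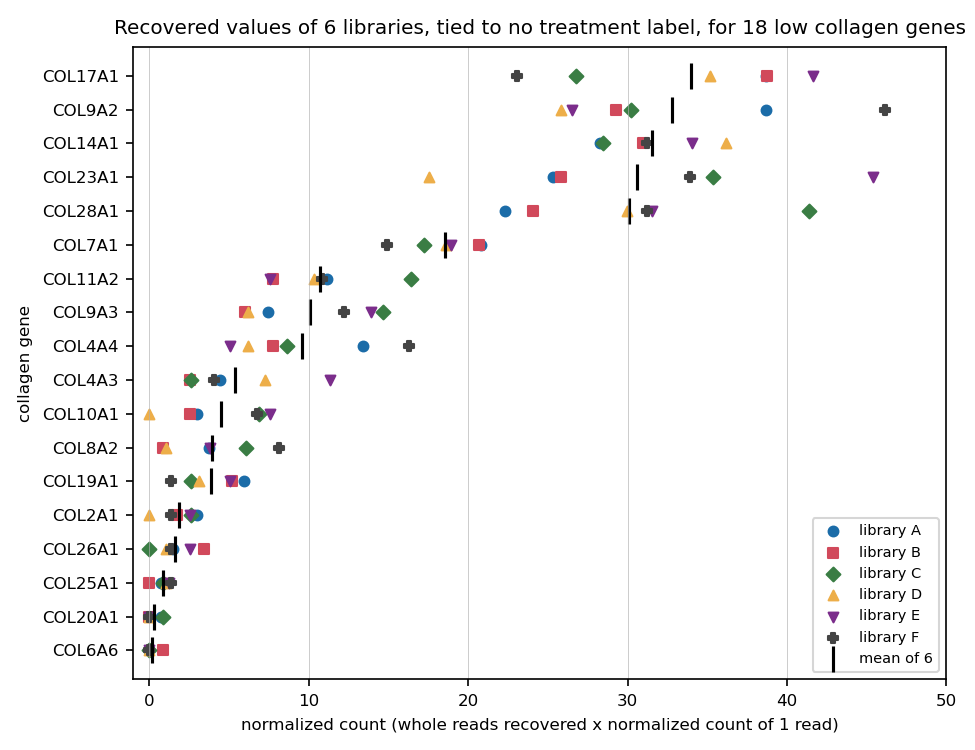
Normalized counts of 18 collagen genes with a mean under 50 in the 6 libraries (x axis), recovered as whole reads times the normalized count of 1 read, with 1 symbol per library and a bar at the mean. The libraries are tied to no treatment label. COL23A1 spreads from 17.57 to 45.42, whereas COL7A1 stays between 14.93 and 20.83.

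Long genes collect more reads, so levels were compared between genes per kilobase of the union of annotated exons. On this scale 14 of the 39 genes were above the median of the 18307 genes with a gene model, which was at 49.45. COL15A1 (4044), COL3A1 (2815), COL5A2 (2772) and COL1A2 (2274) led the family and lay at the 97.9 to 99.1 percentiles of all genes with a gene model. A step followed to COL5A1 (898.3), COL4A2 (834.3), COL6A1 (779.5) and COL4A1 (751.1). This step depended on the length used: by the longest transcript, COL5A2 at 2971 was followed by COL4A2 at 2494. COL12A1 (535.7), COL1A1 (527.9) and COL6A2 (525.7) were nearly equal, and COL4A5 was at 423.6. The same 12 genes led by the longest transcript, by the coding sequence and with no division by length.

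The order inside these 12 moved with the length used, and no error of the level is known for them. By the longest transcript COL1A2 took the second place at 4103 per kilobase, above COL3A1 at 3465, and COL4A2 reached 2494. The union of exons of COL4A2 has 19271 bases, and its longest transcript has 6446. The fibrillar genes held 52.8% of the summed level per kilobase, the multiplexins 24.1%, the type IV genes 11.5% and the beaded filament genes 7.47%. The fibril-associated genes held 3.61%, the transmembrane genes 0.311%, the short-chain network genes 0.120%, COL26A1 and COL28A1 0.0287% and COL7A1 0.00944%. By the longest transcript the share of the type IV genes was 19.3%, and without COL15A1 the share of the multiplexins was 1.53%.

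**Figure D3:**
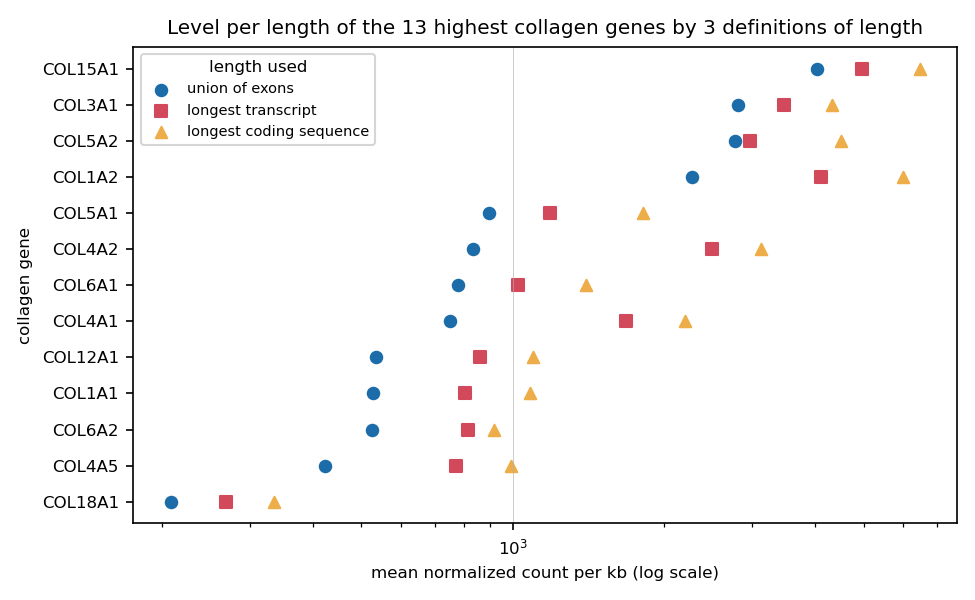
Mean normalized count per kilobase (x axis, log scale) of the 13 highest collagen genes, with the length taken as the union of exons (circles), the longest transcript (squares) or the longest coding sequence (triangles). COL15A1 lies furthest right by each length, and COL4A2 moves from 834.3 to 2494 between the first and the second.

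The coding sequences were alike within some classes and varied within others. In each of the 39 genes at least 2 runs of 5 or more Gly-X-Y triplets were found. The 9 fibrillar genes had 2 or 3 such runs, whereas the 6 type IV genes had 16 to 23 and the multiplexins 12 and 13. The fibril-associated genes, by contrast, ranged from 2 to 18 runs with longest runs of 32 to 113 triplets, and the transmembrane genes from 5 to 16 runs. The exons of the fibrillar genes were short and regular. COL1A2 has 52 coding exons, of which 24 are exactly 54 bases long and 46 are a multiple of 9 bases, the length that encodes whole Gly-X-Y triplets. COL4A2, by comparison, has 1 coding exon of 54 bases among 47, and 24 that are a multiple of 9 bases. COL8A1, COL8A2 and COL10A1 are each encoded in 2 coding exons.

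Both long and interrupted repeats were found in genes at very different levels. COL3A1 and COL2A1 have runs of 343 and 339 triplets, with means of 19022 and 1.861. COL4A2 and COL4A3 have 22 runs each, with means of 16078 and 5.383. COL12A1 encodes 3063 residues, of which 7.64% lie in runs, while in COL1A2 77.7% of 1366 residues do.

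**Figure D4:**
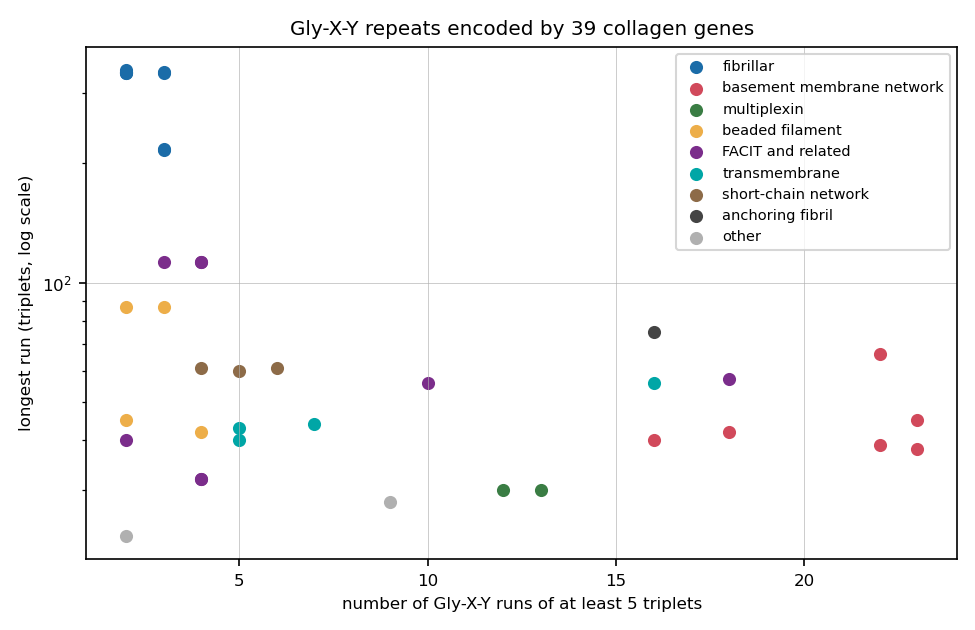
Longest unbroken Gly-X-Y run in triplets (y axis, log scale) against the number of runs of at least 5 triplets (x axis) in the coding sequence of each of the 39 collagen genes, coloured by class; some points coincide. The fibrillar genes lie at the upper left with runs of 216 to 343 triplets, and the type IV genes lie at the right with 16 to 23 runs.

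The enzymes and chaperones that build collagen in the endoplasmic reticulum were all measured well above the lowest levels. Each of the 21 genes of this list had a mean of at least 10, with a range from 129.7 to 21682 and a median of 4238. SERPINH1, the collagen chaperone HSP47, had a mean of 21682, and P4HB and P4HA1, subunits of prolyl 4-hydroxylase, had 19821 and 8873. The lysyl hydroxylase genes PLOD1, PLOD3 and PLOD2 had means of 12417, 6153 and 4975. COLGALT1, which attaches galactose to hydroxylysine, had a mean of 8490, whereas its paralogue COLGALT2 was the lowest of the list at 129.7. Their median level per kilobase was 490.2, beside 13.08 for the collagen genes and 49.45 for all genes with a gene model.

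Of the 13 genes that trim and cross-link collagen outside the cell, 11 had a mean of at least 10. The lysyl oxidase genes differed widely, with means of 41773 for LOXL2, 18363 for LOX, 563.4 for LOXL1, 24.40 for LOXL3 and 3.493 for LOXL4. BMP1, which removes the C-terminal propeptide of fibrillar collagens, had a mean of 1908, and ADAMTS2, which removes the N-terminal one, had 673.5. PCOLCE, an enhancer of BMP1, was low at 32.59, and PCOLCE2 was at 1200.

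Of 10 collagen receptor genes, 6 had a mean of at least 10. ITGB1, the β subunit shared by the collagen-binding integrins, had a mean of 55066. Of the α subunits that pair with it to bind collagen, ITGA10 had 1063, ITGA11 11.45, ITGA2 9.972 and ITGA1 9.191. The discoidin domain receptor DDR2, which binds fibrillar collagen, had a mean of 10280, and DDR1 had 676.4. The platelet and leukocyte receptors GP6 and LAIR1 had 0.3343 and 0.4365. Among the proteins that bind fibrils, FN1, SPARC and THBS1 had means of 30461, 19657 and 10841. The small leucine-rich proteoglycans of fibrils had lower means, with 160.6 for BGN, 102.5 for DCN and 60.11 for LUM. OGN, PRELP and ASPN had 1.151, 0.5138 and 0.2480. Per kilobase, BGN was at 66.82, above the median of 49.45 over all genes with a gene model. Of the 11 fibril-binding genes with a row, 8 had a mean of at least 10.

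**Figure D5:**
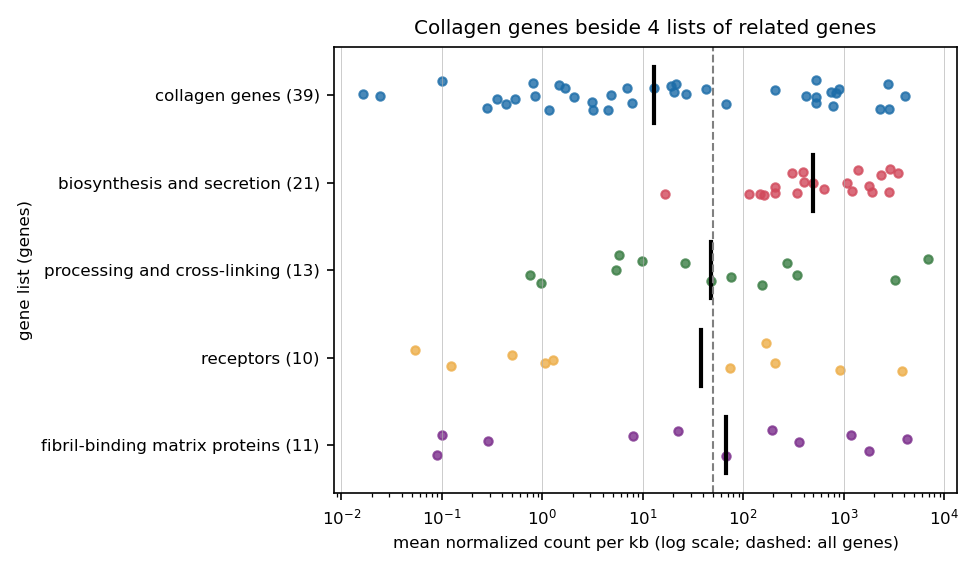
Mean normalized count per kilobase (x axis, log scale) of the 39 collagen genes and of 4 lists of related genes, 1 point per gene with a small vertical offset. A black bar marks each list's median and a dashed line the median of all genes with a gene model (49.45). The biosynthesis genes have a median of 490.2 and the collagen genes one of 13.08.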

How the data were processed

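BT-549/tet-WDR5shRNA cells were profiled as 3 vehicle and 3 DOX cultures. By the paper's methods and the labels, the authors prepared TruSeq stranded mRNA libraries, aligned reads to GRCh38 with STAR and normalized feature counts with DESeq2. For RNA isolation, the labels give a spin-column kit and the paper gives Trizol. Versions of STAR and DESeq2 and the counter are not given in the sources used here. The deposited table holds 1 row per symbol. The mean normalized count in it, a signal averaged by the authors over all 6 libraries, lets no effect of DOX be seen, and the spread between libraries can be seen only for low genes whose reads were recovered, with no treatment label. The other columns hold the authors' own comparison of DOX with vehicle (fold change, standard error, statistic, p-value and adjusted p-value) and were not used. The tests planned for values of single samples were not run, because the deposited table has none that are labelled.

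Lengths and positions came from GENCODE 44 on GRCh38, which matched 17729 symbols directly and 578 by an older symbol, with 1485 unmatched. Older symbols and the stretches upstream of starts came from RefSeq (GRCh38.p14). Levels are mean normalized counts divided by the union of exons in kilobases. The table lists only genes with at least 1 read. Reads per library were solved from means under 50 as whole multiples of what 1 read is worth, to a tolerance set by the printed digits. In simulated means with known reads, 57 of 58 gave the right reads as the only solution. Counting intervals are 95% exact Poisson intervals and do not cover variation between cultures. Genes named are all 39 members, with the 12 highest per kilobase and those with means from 5 to 20 described in full, and listed pathway and marker genes. Members and lists were chosen with earlier results of these data known. Alternatives were other minimums, other lengths, a background of expressed genes and leaving out the highest gene. Calculations used Python 3.11.15 with pandas 2.3.3, numpy 2.4.6 and scipy 1.17.1, and plots were drawn with matplotlib 3.10.9.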

Additional observations from a re-analysis of the deposited data

How the results depend on the processing

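Of 43 values recomputed under alternatives, 33 stayed within 1.5 times the value reported and 10 did not. The number of collagen genes at or above the minimum went from 29 to 31, 26 and 20 with minimums of 5, 20 and 50. The number above the median gene per kilobase was 14, and between 13 and 19 under the other lengths and the background of expressed genes. The values that moved were shares of the summed collagen level. By the longest transcript, the share of the basement membrane network was 19.3% and that of the transmembrane genes 0.626%. By the coding sequence, these shares were 18.2% and 0.722%, that of the short-chain network 0.243% and that of the anchoring fibril gene 0.00600%. With no division by length, the basement membrane network held 20.4%, the beaded filament genes 4.65% and the fibril-associated genes 6.82%. Without COL15A1, the multiplexins held 1.53%. No paired analysis was possible because the table holds no values of labelled samples, and for the same reason a test of DOX against vehicle was not run, nor its repeats with another test, with no filter on low counts or without each replicate. The mean over both treatments limits every level above, and low genes are limited by reads (59 for COL4A4).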
